A study of Mus musculus with 16 samples.

Results

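The genes described here are 44 genes of the cell cycle and of DNA replication, taken as a list of names and sorted by the phase of the cycle in which their products act. Of 56980 gene identifiers in the deposited table, each of the 44 names matched 1 identifier, and all 44 passed the filter on low counts that left 17972 genes for testing. There were 8 G1 cyclins, kinases and an E2F factor, 3 inhibitors, 13 genes of origin licensing and replication, 10 genes of G2 and mitotic entry, and 10 genes of mitosis and the spindle. RNA came from kidney cortex of male C57Bl/6J mice with loxP sites in Degs1, the gene of dihydroceramide desaturase, which makes ceramide from dihydroceramide. The 4 groups had 4 libraries each. iGKO IRI were Degs1iGKO mice, which carry Rosa26-CreERT2 and lose Degs1 in the whole body on tamoxifen, after bilateral ischaemia-reperfusion injury (IRI), with both kidney pedicles clamped for 28 min. fl/fl IRI were Degs1fl/fl littermates after the same injury, iGKO sham were Degs1iGKO mice with surgery but no clamp, and fl/fl sham were Degs1fl/fl littermates with surgery but no clamp. All groups, controls included, had received 3 mg tamoxifen on 5 days at 9 weeks of age, were operated on at 12 weeks, and were sampled at 24 h. The labels do not say that each library is a separate animal, so the p-values measure the spread between these samples.

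A cell that leaves rest first makes D-type cyclins, which with Cdk4 release E2F factors from the pocket proteins, and cyclin E with Cdk2 then starts S phase. Replication origins are licensed by Cdc6, Cdt1 and the Mcm helicase, and mitosis follows under cyclin A, cyclin B and Cdk1 with the spindle kinases and checkpoint proteins. Adult tubule cells of the kidney rarely divide, and after ischaemic injury surviving tubule cells are known to enter the cycle, with mitosis lagging behind the first G1 genes.

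Promoter sequence from RefSeq (build GRCm38.p6) was on hand for 34 of the 44 genes, as windows from 250 bases before to 50 bases after an annotated start. The windows printed are those of Cdk4, the gene that passed the test after IRI, of Cdt1 and Mcm3 for the replication genes, and of Cdk1, Mki67 and Plk1 for the genes of G2 and mitotic entry, since the letters of known cell cycle elements differ between these groups. Capitals mark, on either strand, the E2F letters TTTCGCG or TTTGGCG, the cell cycle homology region TTTGAA, the CCAAT box CCAAT and the E box CACGTG, and no marked match overlaps another. The E box was searched for after the Cdk4 window had been read. The windows follow, 5′ to 3′ on the strand of the gene.
Cdk4, chr10:127063285-127063584, plus strand: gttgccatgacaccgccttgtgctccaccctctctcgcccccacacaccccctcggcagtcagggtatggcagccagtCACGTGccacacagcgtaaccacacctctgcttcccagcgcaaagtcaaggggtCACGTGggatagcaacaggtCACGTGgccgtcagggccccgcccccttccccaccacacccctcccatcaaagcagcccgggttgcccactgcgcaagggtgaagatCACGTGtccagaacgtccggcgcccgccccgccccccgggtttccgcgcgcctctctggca
Cdt1, chr8:122567765-122568064, plus strand: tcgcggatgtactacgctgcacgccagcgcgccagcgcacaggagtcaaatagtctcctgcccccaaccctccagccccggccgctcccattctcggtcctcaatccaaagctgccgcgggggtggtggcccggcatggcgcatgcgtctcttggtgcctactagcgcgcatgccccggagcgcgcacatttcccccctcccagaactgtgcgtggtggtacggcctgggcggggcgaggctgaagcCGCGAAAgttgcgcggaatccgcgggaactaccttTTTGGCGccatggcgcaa
Mcm3, chr1:20820263-20820562, minus strand: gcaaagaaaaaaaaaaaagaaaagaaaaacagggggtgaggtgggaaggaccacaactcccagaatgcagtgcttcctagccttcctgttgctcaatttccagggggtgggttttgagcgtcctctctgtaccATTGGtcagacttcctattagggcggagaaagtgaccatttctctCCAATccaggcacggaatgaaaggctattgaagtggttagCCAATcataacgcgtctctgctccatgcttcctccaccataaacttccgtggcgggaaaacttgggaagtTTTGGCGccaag
Cdk1, chr10:69352863-69353162, minus strand: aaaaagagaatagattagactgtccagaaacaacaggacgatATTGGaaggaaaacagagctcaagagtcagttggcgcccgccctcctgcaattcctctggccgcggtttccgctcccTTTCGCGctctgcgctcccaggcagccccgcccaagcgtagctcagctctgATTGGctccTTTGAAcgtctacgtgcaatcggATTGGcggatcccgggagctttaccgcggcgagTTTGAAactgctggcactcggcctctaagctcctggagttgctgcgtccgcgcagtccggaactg
Mki67, chr7:135716330-135716629, minus strand: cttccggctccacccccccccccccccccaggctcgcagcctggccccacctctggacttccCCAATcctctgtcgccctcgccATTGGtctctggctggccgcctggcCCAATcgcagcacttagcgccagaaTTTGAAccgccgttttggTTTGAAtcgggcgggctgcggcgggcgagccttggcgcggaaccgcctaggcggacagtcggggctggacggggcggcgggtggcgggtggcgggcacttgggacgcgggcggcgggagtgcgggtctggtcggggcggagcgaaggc
Plk1, chr7:122159185-122159484, plus strand: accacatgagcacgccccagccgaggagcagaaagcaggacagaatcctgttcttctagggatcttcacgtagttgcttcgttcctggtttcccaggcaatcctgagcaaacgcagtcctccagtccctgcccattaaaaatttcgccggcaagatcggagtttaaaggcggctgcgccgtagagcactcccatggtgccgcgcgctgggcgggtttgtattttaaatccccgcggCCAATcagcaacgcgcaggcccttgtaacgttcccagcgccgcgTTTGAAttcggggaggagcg
The E2F letters were present in 2.68% of the 27025 genes of the table, in 5 of 12 replication genes, in 1 of 8 genes of G2 and mitotic entry, in 0 of 7 mitosis genes and in 0 of 5 G1 genes. The cell cycle homology region was present in 20.2% of all genes, in 6 of 8 genes of G2 and mitotic entry, in 4 of 7 mitosis genes and in 2 of 12 replication genes. CCAAT boxes were present in 41.1% of all genes, in 8 of 8 genes of G2 and mitotic entry, in 6 of 7 mitosis genes and in 9 of 12 replication genes. The E box was present in 8.09% of all genes and in 3 of 34 of the cell cycle genes, and the Cdk4 window held 4 of them. Where a gene had more than 1 window, a motif was counted if any window held it, and a match of letters is a description of sequence only.

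Libraries held 12704273 to 18816343 counts. Degs1, the targeted gene, had 58.4, 54.8, 44.7 and 59.8 TMM-scaled CPM (counts scaled to a common library size) in iGKO IRI kidneys, against 88.8, 115, 133 and 114 CPM in fl/fl IRI kidneys. It had 65.3, 50.7, 71.7 and 40.2 CPM in iGKO sham kidneys, against 113, 84.0, 98.7 and 105 CPM in fl/fl sham kidneys, so that every iGKO library was below every fl/fl library of the same operation and none was near 0. All 12 proximal tubule markers were detected, with a summed level of 8832 to 29389 CPM in a library. A pair of libraries stood apart from their groups. fl/fl IRI 1 had 101 CPM of Havcr1, the kidney injury molecule of proximal tubules, where its group mates had 710 to 1666 CPM, and the highest summed level of 10 monocyte and macrophage markers, 942 CPM, against 91.6 to 262 CPM in the rest of its group. iGKO sham 4 had 0.443% of its counts on mitochondrial genes, where the other libraries had 2.05% to 6.48%. For several results, values with and without these libraries are given. In whole tissue, fewer cells of a type and less RNA per cell cannot be told apart.

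At 24 h few of the cell cycle genes passed the test. By edgeR's quasi-likelihood test with Benjamini-Hochberg adjustment over all genes at 0.05, 1 of the 44 genes, Cdk4, was higher and 0 were lower in fl/fl IRI than in fl/fl sham kidneys, where 8.46% of all genes tested were called higher and 7.01% lower. In iGKO IRI against iGKO sham kidneys 0 of the 44 passed, and 0% of all genes did. At an unadjusted p under 0.05 there were 9 of the 44 genes in fl/fl, against 30.7% of all genes, and 1 in iGKO, against 6.37% of all genes. DESeq2 called 3 of the 44 higher and 0 lower in fl/fl, and 0 in iGKO. limma with quality weights per library called 2 higher and 7 lower in fl/fl, and 1 higher and 1 lower in iGKO. Averaged over both genotypes, with 8 libraries a side, Cdk4 was again the gene called, against 6.32% of all genes called higher and 5.55% called lower, and 28 of the 44 were above 0, against 50.2% of all genes. The averaged Cdk4 change, 0.34 on the log2 scale (adjusted p = 0.0355), passed in 9 of 22 alternatives. It was lost without the filter on low counts (adjusted p = 0.0802) and with the replicate block (adjusted p = 0.0622). It was also lost without iGKO IRI 2, 3 or 4 and without fl/fl IRI 3. It was lost as well without iGKO sham 1, 2 or 3, or any 1 of the fl/fl sham libraries. Over these fits with a library left out, adjusted p ran from 0.0534 to 0.0825. Averaged Mcm3, not called in the main fit, was called without the filter (0.73, adjusted p = 0.0465). DESeq2 size factors, DESeq2 and limma with quality weights also called Mcm3 (0.62 to 0.74, adjusted p from 0.0189 to 0.0498). Mcm3 passed too when an IRI library was dropped, namely iGKO 1, fl/fl 2 or fl/fl 4, or the sham library iGKO 2. There its log2 fold change was 0.79 to 0.86 (adjusted p from 0.0107 to 0.0464).

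**Figure D1:**
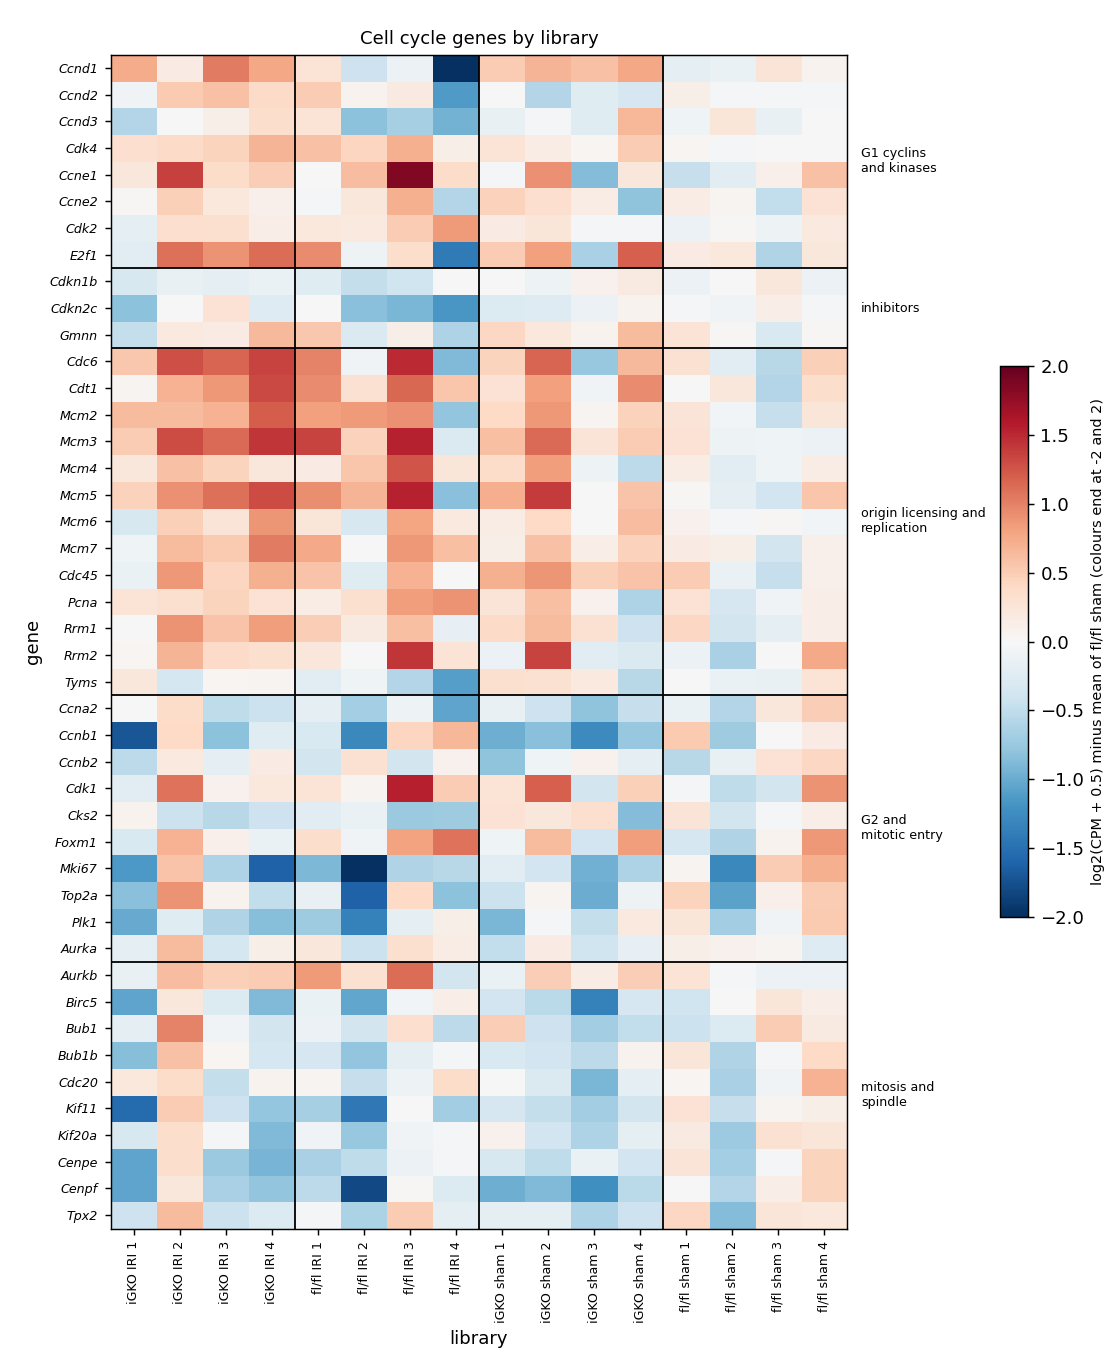
Cell cycle genes in the 16 libraries. Each row is a gene, each column a library, and the colour is log2(CPM + 0.5) minus the mean of that value over the 4 fl/fl sham libraries, from blue (lower) to red (higher), with colours ending at -2 and 2. Lines separate the 4 groups and the phases. The replication rows are mostly red in iGKO IRI 2, 3 and 4 and in fl/fl IRI 1 and 3, and also in iGKO sham 1 and 2, Ccnd1 is red in all 8 iGKO columns and deepest blue in fl/fl IRI 4, and among the mitotic rows iGKO IRI 2 is the reddest column.

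By phase, the medians of the replication genes and of the mitotic genes lay on opposite sides of 0 in fl/fl kidneys. The median log2 fold change of IRI over sham in fl/fl was 0.58 for the 13 replication genes, with 12 of 13 above 0, where the median of all genes was 0.01 and 50.8% of genes were above 0. It was 0.15 for the G1 genes, -0.28 for the inhibitors, -0.30 for the genes of G2 and mitotic entry, with 3 of 10 above 0, and -0.35 for the mitosis genes, with 1 of 10 above 0. In iGKO the same medians were 0.22 for replication, with 11 of 13 above 0, 0.18 for G1, -0.17 for the inhibitors, 0.14 for G2 and mitotic entry and 0.29 for mitosis, with 9 of 10 above 0, where the median of all genes was -0.02 and 46.4% were above 0. Without iGKO IRI 2 the iGKO medians were -0.21 for G2 and mitotic entry, with 4 of 10 above 0, and -0.06 for mitosis, with 4 of 10 above 0. The iGKO replication median was 0.09 without iGKO IRI 4 and 0.10 without iGKO sham 3. Without iGKO sham 4 it was 0.18, with 9 of 13 above 0. In fl/fl, the replication median was 0.33 without fl/fl IRI 3, with 12 of 13 above 0. The fl/fl mitosis median was -0.18 without fl/fl IRI 2, with 3 of 10 above 0. The fl/fl G1 median was -0.01 without fl/fl sham 3 and 0.02 without fl/fl IRI 1, with 4 of 8 above 0 in each. By limma with quality weights the fl/fl medians were 0.30 for replication, -0.60 for G2 and mitotic entry and -0.71 for mitosis. Between the sham groups the medians also took different signs by phase, with 0 of 44 genes passing. After sham, the median of iGKO over fl/fl was -0.37 for G2 and mitotic entry, with 3 of 10 above 0. It was -0.51 for mitosis, with 1 of 10 above 0, and 0.33 for replication, with 13 of 13 above 0. Relative to the fl/fl sham mean, the mitosis medians by library ran from -0.66 to -0.25 in iGKO sham and from -0.59 to 0.22 in fl/fl sham. The replication medians ran from 0.05 to 0.84 in iGKO sham and from -0.19 to 0.16 in fl/fl sham, so both overlapped. After IRI the medians of iGKO over fl/fl were 0.01 for G2 and mitotic entry, 0.05 for mitosis and 0.18 for replication. Of single genes, 0 of 44 passed the test of a difference between the responses, the genotype by operation interaction, against 0% of all genes. At an unadjusted p under 0.05 that test gave 1 of 44, Ccna2, against 11.3% of all genes. At an adjusted p under 0.05, DESeq2 gave 0 and limma with quality weights gave 1, Cenpf. Without both iGKO sham 4 and fl/fl IRI 1, edgeR's test gave Ccnd3 (0.96, adjusted p = 0.0324) and Cdkn2c (1.10, adjusted p = 0.0451). The interaction was above 0 for 25 of the 44 genes, against 47.9% of all genes.

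**Figure D2:**
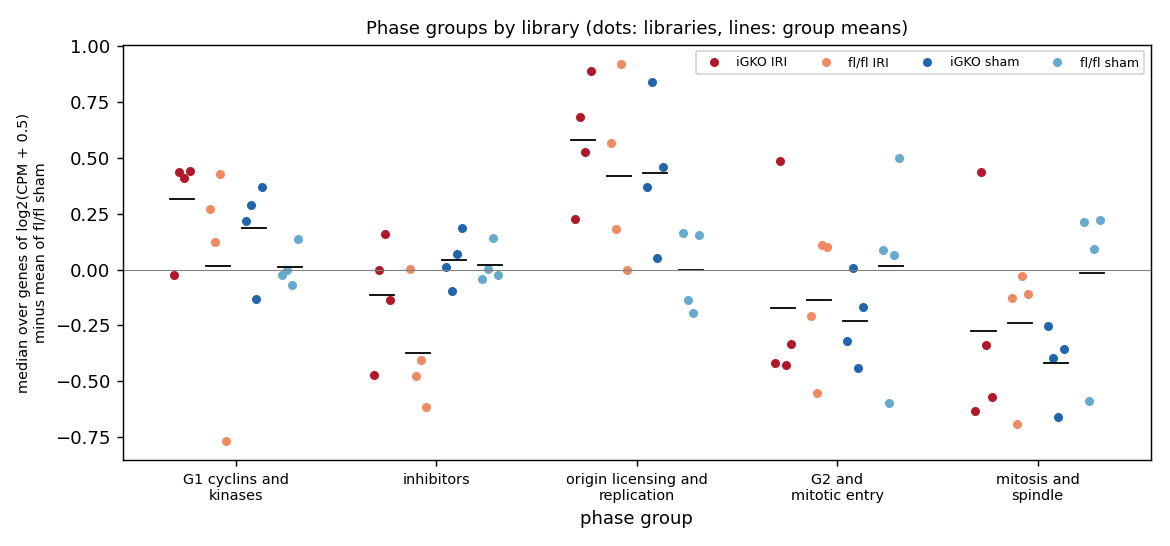
Phase groups by library. Each dot is 1 library, placed at the median over the genes of a phase of log2(CPM + 0.5) minus the fl/fl sham mean of the gene, and the short lines are means of the 4 libraries of a group. For replication genes the medians run from 0.22 to 0.89 in iGKO IRI, from near 0 to 0.92 in fl/fl IRI, from 0.05 to 0.84 in iGKO sham and from -0.19 to 0.16 in fl/fl sham. For mitosis genes iGKO IRI 2 stands alone at 0.44 in its group, whose other libraries lie between -0.63 and -0.34.

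Among the G1 genes Cdk4, the kinase partner of D-type cyclins, was higher after IRI in fl/fl kidneys. Cdk4 had 67.6, 70.4, 73.2 and 86.2 CPM in iGKO IRI kidneys and 80.5, 72.1, 88.2 and 58.0 CPM in fl/fl IRI kidneys. It had 65.0, 59.7, 55.1 and 76.9 CPM in iGKO sham kidneys and 55.1, 52.8, 53.2 and 53.4 CPM in fl/fl sham kidneys. Every fl/fl IRI library was above every fl/fl sham library, the sham libraries lay close together, and in iGKO the ranges overlapped. Such separation with IRI above was seen for 2 of the 44 genes in fl/fl, Cdk4 and Mcm4, against 9.65% of all genes, and with IRI below for 0 of the 44, against 9.82% of all genes. The log2 fold change in fl/fl was 0.48 (SE 0.14, adjusted p = 0.0340 by edgeR's quasi-likelihood test), a fold of 1.13 to 1.72 at 95% confidence. In iGKO it was 0.21 (SE 0.14, adjusted p = 0.926), and the interaction was -0.26 (SE 0.20, adjusted p = 0.642). The fl/fl call was lost without the filter on low counts (adjusted p = 0.0847) and with only the fl/fl groups in the fit (adjusted p = 0.0656). It was also lost without fl/fl IRI 2, fl/fl IRI 3 or any 1 of the fl/fl sham libraries, with adjusted p from 0.0531 to 0.113, while the log2 fold change stayed between 0.39 and 0.58 over 23 alternatives.

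Ccnd1, cyclin D1, the classical mitogen-induced partner of Cdk4, had higher means in iGKO than in fl/fl kidneys after either operation, with no call by edgeR. It had 270, 180, 333 and 276 CPM in iGKO IRI kidneys, against 195, 120, 149 and 16.9 CPM in fl/fl IRI kidneys. It had 230, 258, 243 and 276 CPM in iGKO sham kidneys, against 140, 148, 192 and 170 CPM in fl/fl sham kidneys. After sham every iGKO library was above every fl/fl library, after IRI the groups overlapped through fl/fl IRI 1 and iGKO IRI 2, and fl/fl IRI 4 was far below all other libraries. The log2 fold change of iGKO over fl/fl was 1.14 (SE 0.43, adjusted p = 0.179) after IRI and 0.63 (SE 0.43) after sham, neither past the threshold. Without fl/fl IRI 1 the difference after IRI was 1.47 with an adjusted p of 0.0420, and without fl/fl IRI 4 it was 0.77 with an adjusted p of 0.144. With all libraries it passed by limma with quality weights (1.20, adjusted p = 0.0227). Ccnd1 was the only one of the 44 with iGKO ranges above fl/fl after sham, against 1.05% of all genes.

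Cyclin D2 and cyclin D3, the other D-type cyclins, did not pass edgeR's test in any comparison with all libraries. Ccnd2 had 34.5, 52.5, 54.8 and 47.6 CPM in iGKO IRI kidneys and 51.7, 37.9, 41.1 and 16.2 CPM in fl/fl IRI kidneys. It had 36.6, 24.0, 30.7 and 28.6 CPM in iGKO sham kidneys and 39.3, 35.3, 35.4 and 35.1 CPM in fl/fl sham kidneys. In iGKO, 3 of 4 IRI libraries were above all sham libraries, with a log2 fold change of 0.66 (SE 0.25, adjusted p = 0.683), and in fl/fl it was 0.02 (SE 0.25), with fl/fl IRI 4 again the lowest library. By limma with quality weights Ccnd2 passed in iGKO, at 0.67 (adjusted p = 0.0410), and in the average over genotypes, at 0.37 (adjusted p = 0.0385). Ccnd3, given here because leaving out 1 library changed its call, averaged 119 ± 30.2 CPM in iGKO IRI, 85.8 ± 37.6 CPM in fl/fl IRI, 127 ± 39.7 CPM in iGKO sham and 118 ± 14.6 CPM in fl/fl sham kidneys (SD, n = 4 each). In fl/fl IRI, library 1 had 142 CPM and the other 3 had 60.5 to 74.4 CPM. By limma with quality weights Ccnd3 was lower after IRI in fl/fl, at -0.62 (adjusted p = 0.0186). Without fl/fl IRI 1, Ccnd3 was lower after IRI in fl/fl by log2 -0.82 (adjusted p = 0.0175) and higher in iGKO than in fl/fl after IRI by 0.82 (adjusted p = 0.0277).

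Cdk2, the kinase of cyclin E, came close to the threshold in fl/fl. It had 15.5, 22.5, 22.2 and 19.5 CPM in iGKO IRI kidneys and 20.4, 20.2, 25.4 and 32.4 CPM in fl/fl IRI kidneys. It had 19.8, 21.1, 17.4 and 17.2 CPM in iGKO sham kidneys and 16.4, 18.0, 16.4 and 20.3 CPM in fl/fl sham kidneys. In fl/fl, 3 of 4 IRI libraries were above all sham libraries and IRI 2 lay just under the highest, and the iGKO groups overlapped. The log2 fold change of IRI over sham was 0.08 (SE 0.17) in iGKO and 0.47 (SE 0.17, adjusted p = 0.0749) in fl/fl, where it passed without fl/fl IRI 1 (adjusted p = 0.0366) and with DESeq2 (adjusted p = 0.0487). Ccne1, cyclin E1, was sparse, with 2 to 52 reads in a library. Ccne1 had 0.817, 2.41, 0.948 and 1.08 CPM in iGKO IRI kidneys and 0.615, 1.22, 3.54 and 0.948 CPM in fl/fl IRI kidneys. Its sham values were 0.601, 1.61, 0.112 and 0.809 CPM in iGKO and 0.316, 0.454, 0.699 and 1.19 CPM in fl/fl. IRI and sham ranges overlapped in both genotypes, each IRI group had 1 high library, and the averaged log2 fold change was 0.99 (SE 0.46, adjusted p = 0.174). Ccne2, the second cyclin E, averaged between 1.72 and 2.02 CPM in the 4 groups. E2f1, the transcription factor that switches on replication genes, averaged 10.8 ± 3.92 CPM in iGKO IRI, 6.71 ± 4.15 CPM in fl/fl IRI, 9.31 ± 4.46 CPM in iGKO sham and 6.07 ± 1.58 CPM in fl/fl sham kidneys (SD, n = 4 each), with no call.

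**Figure D3:**
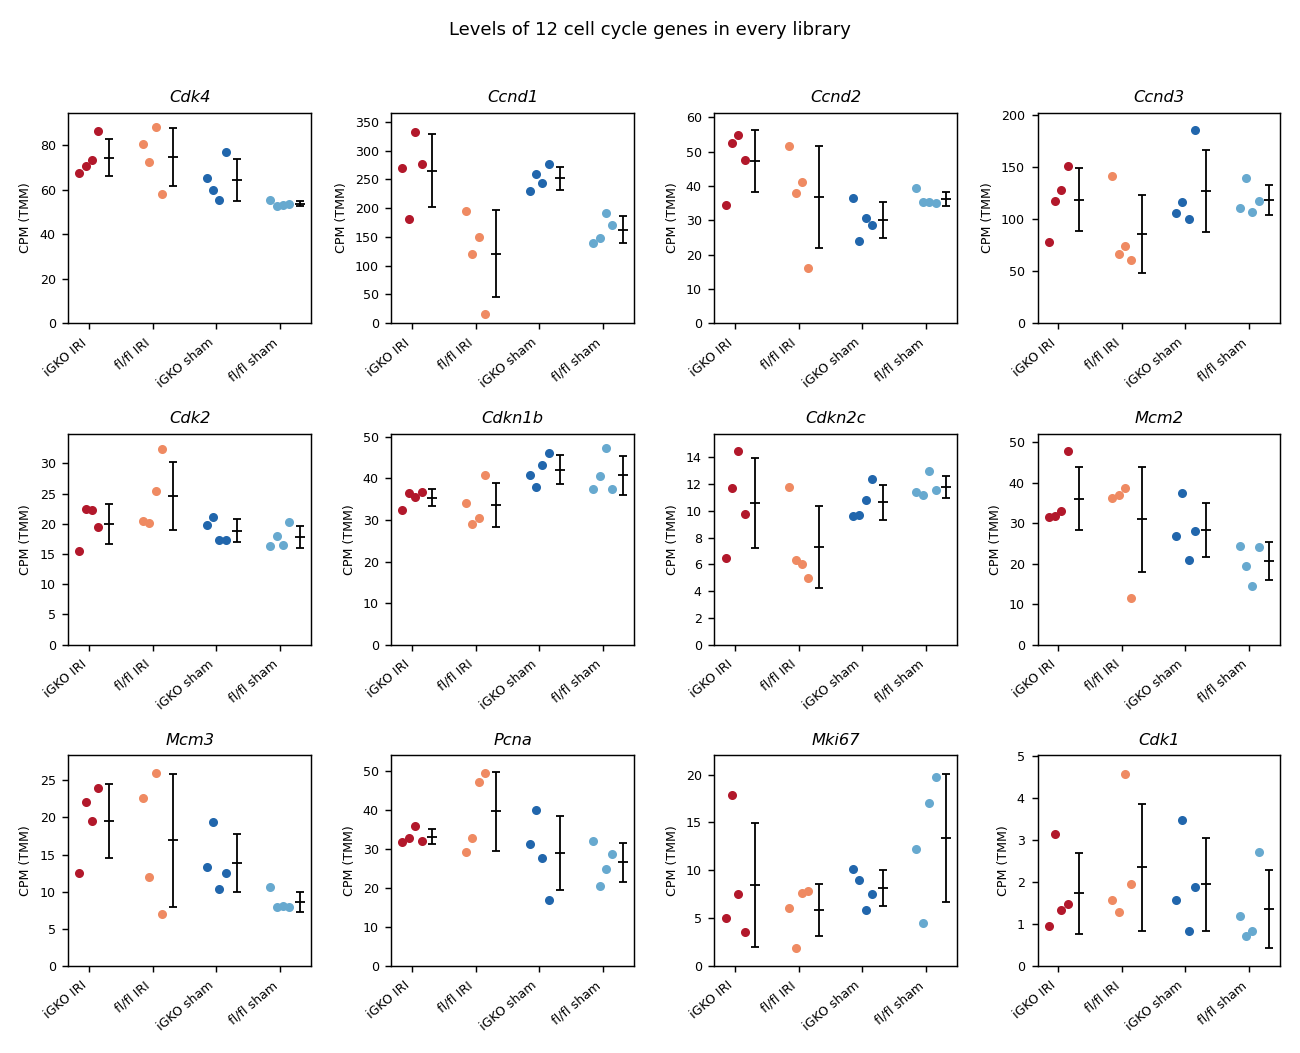
Levels of 12 cell cycle genes. Each dot is 1 library, with CPM on a linear axis from 0, and the bar beside each group is the mean with the SD of 4 libraries. Cdk4 lies at 58.0 to 88.2 CPM in fl/fl IRI and at 52.8 to 55.1 CPM in fl/fl sham, Ccnd1 is higher in both iGKO groups than in the fl/fl groups by mean, and single libraries such as Mcm2 in fl/fl IRI 4 (11.5 CPM) and Mki67 in iGKO IRI 2 (17.8 CPM) widen their groups.

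The 3 inhibitors had mean levels after IRI at or below those after sham, and none passed edgeR's test. Cdkn1b, which encodes the kinase inhibitor p27 of resting cells, had 32.3, 36.5, 35.6 and 36.8 CPM in iGKO IRI kidneys and 34.2, 29.0, 30.5 and 40.8 CPM in fl/fl IRI kidneys. It had 40.8, 37.9, 43.2 and 46.2 CPM in iGKO sham kidneys and 37.5, 40.7, 47.3 and 37.4 CPM in fl/fl sham kidneys. Every iGKO IRI library was below every iGKO sham library, which held for 1 of the 44 genes against 2.76% of all genes, while 0 of the 44 had all iGKO IRI libraries above, against 2.24% of all genes, and in fl/fl only IRI library 4 reached the sham range. The log2 fold changes were -0.25 (SE 0.13, adjusted p = 0.833) in iGKO and -0.28 (SE 0.13, adjusted p = 0.170) in fl/fl, with an interaction of 0.02 (SE 0.19). By limma with quality weights Cdkn1b passed in fl/fl (-0.38, adjusted p = 0.0218), as did Cdkn2c (-0.81, adjusted p = 0.0164). Cdkn2c, an inhibitor of Cdk4 and Cdk6, had 6.46, 11.7, 14.5 and 9.73 CPM in iGKO IRI kidneys and 11.8, 6.35, 6.00 and 4.99 CPM in fl/fl IRI kidneys. It had 9.61, 9.71, 10.8 and 12.4 CPM in iGKO sham kidneys and 11.4, 11.2, 13.0 and 11.5 CPM in fl/fl sham kidneys. In fl/fl, 3 IRI libraries had the lowest levels of all 16 and fl/fl IRI 1 lay within the sham range. The log2 fold change in fl/fl was -0.69 (SE 0.26, adjusted p = 0.0848), and without fl/fl IRI 1 it was -1.02 (adjusted p = 0.00523). After IRI, iGKO over fl/fl was 0.54 (SE 0.26, adjusted p = 0.271) with all libraries and 0.88 (adjusted p = 0.0227) without fl/fl IRI 1. Gmnn, geminin, which blocks Cdt1 after origins have fired, had 5.57, 9.13, 8.91 and 12.6 CPM in iGKO IRI kidneys and 11.8, 6.42, 8.65 and 4.99 CPM in fl/fl IRI kidneys. Its sham values were 10.7, 9.28, 8.33 and 12.6 CPM in iGKO and 9.64, 8.04, 6.29 and 8.03 CPM in fl/fl, all groups overlapped, and the averaged log2 fold change was -0.09 (SE 0.19).

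Of the 13 replication genes 0 passed edgeR's adjusted threshold in fl/fl with all libraries, while 5 had an unadjusted p under 0.05, beside 30.7% of all genes. The helicase subunits Mcm2 to Mcm7 had log2 fold changes between 0.28 for Mcm6 and 0.97 for Mcm3 in fl/fl and between 0.08 and 0.49 in iGKO. Mcm3 had 12.5, 22.0, 19.5 and 23.9 CPM in iGKO IRI kidneys and 22.6, 12.0, 26.0 and 6.95 CPM in fl/fl IRI kidneys. It had 13.3, 19.4, 10.4 and 12.5 CPM in iGKO sham kidneys and 10.7, 7.98, 8.11 and 7.89 CPM in fl/fl sham kidneys. In fl/fl, 3 IRI libraries were above all sham libraries and fl/fl IRI 4 was below them, and in iGKO the ranges overlapped. The fl/fl log2 fold change of Mcm3 was 0.97 (SE 0.33, adjusted p = 0.0610), it passed with DESeq2 (0.97, adjusted p = 0.0289), and without fl/fl IRI 4 it was 1.22 (adjusted p = 0.0136). In iGKO it was 0.49 (SE 0.33, adjusted p = 0.926), with an interaction of -0.48 (SE 0.47, adjusted p = 0.725).

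Mcm2 showed the same low library. It had 31.6, 31.8, 32.9 and 47.7 CPM in iGKO IRI kidneys and 36.3, 37.0, 38.8 and 11.5 CPM in fl/fl IRI kidneys. It had 26.9, 37.4, 21.0 and 28.0 CPM in iGKO sham kidneys and 24.4, 19.5, 14.6 and 24.1 CPM in fl/fl sham kidneys. Each of 3 fl/fl IRI libraries was above every fl/fl sham library, and fl/fl IRI 4 was the lowest of all 16. The log2 response was 0.35 (SE 0.30) in iGKO and 0.58 (SE 0.30, adjusted p = 0.205) in fl/fl, and 0.86 (adjusted p = 0.0203) in fl/fl without fl/fl IRI 4, where Mcm5 also passed (1.09, adjusted p = 0.0429). With all libraries Mcm2 passed in fl/fl by limma with quality weights (0.71, adjusted p = 0.0432). Mcm7 had 20.6, 34.2, 31.8 and 45.6 CPM in iGKO IRI kidneys and 37.4, 21.8, 40.3 and 33.7 CPM in fl/fl IRI kidneys. It had 24.0, 33.2, 24.2 and 30.3 CPM in iGKO sham kidneys and 24.7, 23.8, 16.8 and 23.5 CPM in fl/fl sham kidneys. In fl/fl only IRI library 2 lay within the sham range, with a log2 fold change of 0.59 (SE 0.23, adjusted p = 0.0968) that passed without that library (0.74, adjusted p = 0.0419). Mcm4 averaged 16.1 ± 2.06 CPM in iGKO IRI, 19.1 ± 7.49 CPM in fl/fl IRI, 14.5 ± 6.09 CPM in iGKO sham and 12.3 ± 1.56 CPM in fl/fl sham kidneys (SD, n = 4 each). Every fl/fl IRI library of Mcm4 was above every fl/fl sham library, with a log2 fold change of 0.63 (SE 0.28, adjusted p = 0.135). Mcm4 passed edgeR's test in fl/fl without both iGKO sham 4 and fl/fl IRI 1 (0.78, adjusted p = 0.0304).

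Cdt1, which loads the Mcm helicase and carries 2 matches to the E2F letters in the window printed above, had 9.35, 14.9, 16.7 and 23.2 CPM in iGKO IRI kidneys and 17.7, 11.2, 20.4 and 13.5 CPM in fl/fl IRI kidneys. It had 11.1, 16.2, 8.55 and 17.7 CPM in iGKO sham kidneys and 9.01, 10.6, 5.80 and 11.6 CPM in fl/fl sham kidneys. In fl/fl, 3 of 4 IRI libraries were above all sham libraries and IRI 2 lay just under the highest. On the log2 scale the response was 0.26 (SE 0.30) in iGKO and 0.76 (SE 0.30, adjusted p = 0.0974) in fl/fl. Pcna, the sliding clamp of the replication fork that also serves DNA repair, had 31.9, 33.0, 36.0 and 32.1 CPM in iGKO IRI kidneys and 29.3, 32.9, 47.3 and 49.5 CPM in fl/fl IRI kidneys. It had 31.4, 40.2, 27.8 and 17.0 CPM in iGKO sham kidneys and 32.2, 20.6, 24.9 and 28.7 CPM in fl/fl sham kidneys. Here fl/fl IRI 4, low for Mcm2, Mcm3 and Mcm5, was the highest library, and fl/fl IRI 1 was inside the sham range. The log2 fold change of Pcna was 0.19 (SE 0.23) in iGKO and 0.58 (SE 0.23, adjusted p = 0.0973) in fl/fl. In fl/fl it passed without fl/fl IRI 1 (0.70, adjusted p = 0.0395) and without iGKO sham 4 (0.59, adjusted p = 0.0366). The iGKO value includes iGKO sham 4, at 17.0 CPM the lowest of all 16 libraries, where the other iGKO sham libraries had 27.8 to 40.2 CPM.

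The nucleotide enzymes had log2 fold changes of both signs and none passed. Rrm1 and Rrm2, the subunits of ribonucleotide reductase, had fl/fl log2 fold changes of 0.28 (SE 0.26) and 0.55 (SE 0.43). Tyms, thymidylate synthase, was the replication gene below 0 in fl/fl, at -0.47 (SE 0.23, adjusted p = 0.187), with 15.1 ± 4.56 CPM in fl/fl IRI and 20.9 ± 3.05 CPM in fl/fl sham kidneys (SD, n = 4 each). Cdc6, the licensing factor that acts with Cdt1, had 0.69 (SE 0.54) in iGKO and 0.73 (SE 0.56) in fl/fl. Cdc45, the helicase activator, averaged 4.48 ± 1.39 CPM in iGKO IRI, 3.79 ± 1.29 CPM in fl/fl IRI, 5.02 ± 0.668 CPM in iGKO sham and 3.08 ± 1.02 CPM in fl/fl sham kidneys (SD, n = 4 each). All 13 replication genes were above 0 in iGKO sham over fl/fl sham kidneys, with a median of 0.33 and 0.10 to 0.75 as range, where 52.2% of all genes were above 0. This count includes iGKO sham 2, the highest iGKO sham library for Mcm4 (22.3 CPM), Pcna (40.2 CPM) and Rrm2 (14.4 CPM). Without iGKO sham 2, 6 of the 44 genes changed sign in iGKO over fl/fl after sham. The medians of the genes of G2 and mitotic entry and of the mitosis genes were below 0 in that contrast, as given above. None of these differences passed, and the fl/fl sham libraries are also the baseline of the fl/fl response, so both contrasts share them.

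**Figure D4:**
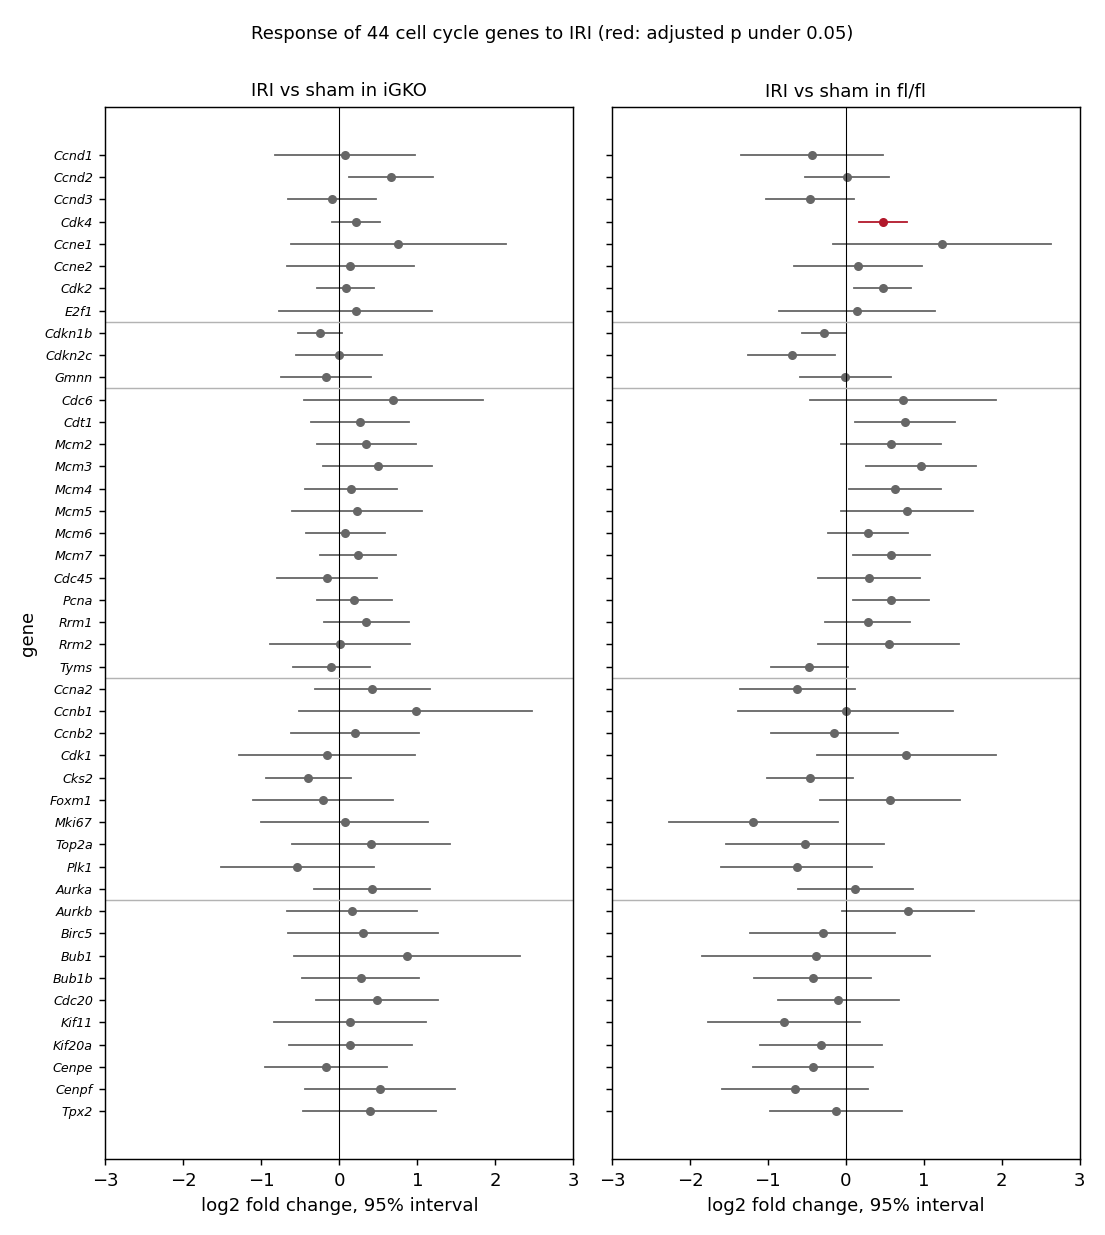
Response of 44 cell cycle genes to IRI. Each dot is the log2 fold change of IRI over sham from the edgeR fit and each bar its 95% interval, for iGKO on the left and fl/fl on the right, and red marks an adjusted p under 0.05. Cdk4 in fl/fl (0.48) is the single red gene, 12 of 13 replication genes lie right of 0 in fl/fl, and 1 of 10 mitosis genes does.

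Genes of G2 and mitotic entry were low, and 0 of 10 passed edgeR's test in either genotype. Mki67, the proliferation marker Ki-67, had 5.05, 17.8, 7.52 and 3.51 CPM in iGKO IRI kidneys and 6.08, 1.89, 7.63 and 7.84 CPM in fl/fl IRI kidneys. It had 10.1, 8.97, 5.81 and 7.55 CPM in iGKO sham kidneys and 12.2, 4.54, 17.0 and 19.7 CPM in fl/fl sham kidneys. In fl/fl, 3 of 4 sham libraries were above all IRI libraries and fl/fl sham 2 lay within the IRI range, and in iGKO the highest and the lowest level were both in IRI kidneys. On the log2 scale IRI over sham was 0.07 (SE 0.51) in iGKO and -1.19 (SE 0.51, adjusted p = 0.126) in fl/fl, a fold of 0.21 to 0.93 at 95% confidence, and the interaction was 1.26 (SE 0.72, adjusted p = 0.521). By limma with quality weights Mki67 passed in fl/fl, at -2.14 (adjusted p = 0.0194). Top2a, the topoisomerase that untangles sister chromatids, had 3.71, 13.5, 7.39 and 4.87 CPM in iGKO IRI kidneys and 6.29, 1.96, 9.40 and 3.79 CPM in fl/fl IRI kidneys. Its sham values were 5.11, 7.36, 3.30 and 6.54 CPM in iGKO and 9.80, 3.11, 7.62 and 10.3 CPM in fl/fl, so the groups overlapped, with log2 fold changes of 0.41 (SE 0.48) in iGKO and -0.52 (SE 0.48) in fl/fl.

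Cdk1, the kinase that drives mitosis, and its cyclins had few reads. Cdk1 had 0.965, 3.15, 1.33 and 1.49 CPM in iGKO IRI kidneys and 1.57, 1.28, 4.56 and 1.96 CPM in fl/fl IRI kidneys. It had 1.58, 3.47, 0.838 and 1.89 CPM in iGKO sham kidneys and 1.19, 0.713, 0.839 and 2.72 CPM in fl/fl sham kidneys. Each of the 4 groups had 1 library well above the other 3, the groups overlapped, and the log2 fold changes were -0.16 (SE 0.54) in iGKO and 0.78 (SE 0.54, adjusted p = 0.354) in fl/fl. Ccnb1, cyclin B1, with 1 to 39 reads in a library, had 0.0742, 1.97, 0.569 and 1.08 CPM in iGKO IRI kidneys and 1.03, 0.270, 2.04 and 2.46 CPM in fl/fl IRI kidneys. It had 0.450, 0.557, 0.279 and 0.606 CPM in iGKO sham kidneys and 2.21, 0.648, 1.40 and 1.61 CPM in fl/fl sham kidneys. After sham every iGKO library was below every fl/fl library, which held for 1 of the 44 genes against 0.874% of all genes, with a log2 fold change of -1.61 (SE 0.70, unadjusted p = 0.0339) that did not pass adjustment. Ccnb2, the second cyclin B, averaged between 1.04 and 1.34 CPM in the 4 groups. Ccna2, cyclin A2, had log2 fold changes of 0.42 (SE 0.35) in iGKO and -0.62 (SE 0.35) in fl/fl, and the interaction was 1.04 (SE 0.49, unadjusted p = 0.0489, adjusted p = 0.441).

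Cks2, a small subunit of the cyclin-dependent kinases, had 15.1, 10.5, 9.67 and 10.6 CPM in iGKO IRI kidneys and 12.3, 13.1, 8.38 and 8.59 CPM in fl/fl IRI kidneys. It had 17.6, 17.0, 18.2 and 7.68 CPM in iGKO sham kidneys and 17.3, 11.1, 14.0 and 15.8 CPM in fl/fl sham kidneys. Of the iGKO sham libraries, iGKO sham 4 was below every IRI library and the other 3 were above every IRI library. Averaged over genotypes, the log2 fold change was -0.43 (SE 0.18, adjusted p = 0.138), and without both iGKO sham 4 and fl/fl IRI 1 it was -0.56 (adjusted p = 0.0133). In iGKO Cks2 passed by limma with quality weights, at -0.68 (adjusted p = 0.0402). Plk1, polo-like kinase 1, had 0.742, 1.60, 1.14 and 0.878 CPM in iGKO IRI kidneys and 1.03, 0.473, 1.70 and 2.21 CPM in fl/fl IRI kidneys. It had 0.826, 1.92, 1.29 and 2.36 CPM in iGKO sham kidneys and 2.45, 1.04, 1.89 and 3.07 CPM in fl/fl sham kidneys, and all groups overlapped, with log2 fold changes of -0.54 (SE 0.46) in iGKO and -0.63 (SE 0.46) in fl/fl. By limma with quality weights Plk1 passed in fl/fl, at -1.56 (adjusted p = 0.0345). Aurka, the centrosome kinase Aurora A, had 1.04, 2.22, 0.885 and 1.42 CPM in iGKO IRI and 1.57, 0.811, 1.70 and 1.45 CPM in fl/fl IRI kidneys. Its sham levels were 0.751, 1.49, 0.838 and 1.08 CPM in iGKO and 1.42, 1.36, 1.33 and 0.978 CPM in fl/fl, with overlap throughout. Foxm1, the factor that switches on mitotic genes, averaged 2.73 ± 1.07 CPM in iGKO IRI, 3.96 ± 1.50 CPM in fl/fl IRI, 3.18 ± 1.42 CPM in iGKO sham and 2.66 ± 1.52 CPM in fl/fl sham kidneys (SD, n = 4 each).

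In the mitosis and spindle group 0 of 10 genes passed edgeR's test in either genotype, and all had group means under 5 CPM, as did 20 of the 44 genes. Aurkb, the kinase of the chromosomal passenger complex, was the mitosis gene above 0 in fl/fl. It had 0.817, 1.73, 1.52 and 1.55 CPM in iGKO IRI kidneys and 2.12, 1.28, 2.66 and 0.632 CPM in fl/fl IRI kidneys. It had 0.826, 1.55, 1.12 and 1.55 CPM in iGKO sham kidneys and 1.26, 0.908, 0.839 and 0.838 CPM in fl/fl sham kidneys. In fl/fl, 3 IRI libraries were above all sham libraries and IRI 4 was below them, with a log2 fold change of 0.79 (SE 0.40, adjusted p = 0.192), against 0.16 (SE 0.39) in iGKO. Cdc20, the activator of the anaphase-promoting complex, had 2.67, 3.02, 1.45 and 2.36 CPM in iGKO IRI and 2.32, 1.49, 2.04 and 3.03 CPM in fl/fl IRI kidneys. Its sham levels were 2.25, 1.73, 0.950 and 1.89 CPM in iGKO and 2.29, 1.23, 2.10 and 3.91 CPM in fl/fl, with log2 fold changes of 0.49 (SE 0.37) in iGKO and -0.10 (SE 0.37) in fl/fl and ranges that overlapped in both.

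Kif11, the motor that pushes spindle poles apart, had 0.594, 4.01, 1.90 and 1.35 CPM in iGKO IRI kidneys and 1.50, 0.676, 2.66 and 1.45 CPM in fl/fl IRI kidneys. It had 2.03, 1.79, 1.45 and 1.95 CPM in iGKO sham kidneys and 3.40, 1.82, 2.80 and 2.93 CPM in fl/fl sham kidneys. The iGKO sham libraries lay inside the wide iGKO IRI range, and 3 of 4 fl/fl sham libraries were above all fl/fl IRI libraries. The log2 response was 0.13 (SE 0.46) in iGKO and -0.79 (SE 0.46, adjusted p = 0.259) in fl/fl, where limma with quality weights called it at -1.41 (adjusted p = 0.0415). Cenpe, a kinetochore motor, had 1.34, 4.32, 1.77 and 1.49 CPM in iGKO IRI kidneys and 1.91, 2.16, 3.00 and 3.22 CPM in fl/fl IRI kidneys. It had 2.55, 2.17, 2.96 and 2.43 CPM in iGKO sham kidneys and 4.03, 1.88, 3.21 and 4.68 CPM in fl/fl sham kidneys. Apart from iGKO IRI 2, every iGKO IRI library of Cenpe was below every iGKO sham library, and the log2 fold change in iGKO was -0.18 (SE 0.37). The other mitosis genes, which are survivin Birc5, the checkpoint kinases Bub1 and Bub1b, the motor Kif20a, the kinetochore protein Cenpf and the spindle factor Tpx2, had fl/fl log2 fold changes from -0.65 for Cenpf to -0.13 for Tpx2 and iGKO log2 fold changes from 0.14 for Kif20a to 0.87 for Bub1. Of these, Cenpf passed by limma with quality weights in fl/fl, at -1.74 (adjusted p = 0.0146), and in the interaction, at 2.34 (adjusted p = 0.0377).

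iGKO IRI 2 was above its group for mitotic genes as a class. All 10 mitosis genes of iGKO IRI 2 were above the fl/fl sham mean, against 1 or 2 of 10 in the other iGKO IRI libraries. The same library had a summed level of 7 fibroblast and mural cell markers of 6514 CPM, against 980 to 1893 CPM in the other iGKO IRI libraries and 577 to 1454 CPM in the remaining 12, with all 7 markers detected. Its part in the mitotic levels was not tested.

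Between genotypes after IRI, 0 of the 44 genes passed with all libraries, against 0.178% of all genes called higher in iGKO and 0.673% called lower. At an unadjusted p under 0.05 there was 1 gene, Ccnd1, against 19.1% of all genes. DESeq2 called 0, beside 911 of 17972 genes, and limma with quality weights called 1, beside 1461 of 17972 genes. For 0 of the 44 did the iGKO libraries lie all above or all below the fl/fl libraries, against 2.48% and 3.04% of all genes, and 29 of the 44 had a log2 fold change above 0, against 48.6%. Without fl/fl IRI 1 there were 3 of 44, Ccnd1, Ccnd3 and Cdkn2c, all higher in iGKO, as described above. Over the fits with 1 library left out, the genes called in this contrast ranged from 0 to 2495 of 17972. After sham 0 of 44 passed, against 0% of all genes, DESeq2 and limma with quality weights called 0 as well, and 3 genes, Ccnb1, Cdc45 and Cenpf, had an unadjusted p under 0.05, against 1.17% of all genes.

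A wider list of 116 other cell cycle genes, of which 110 were tested, held larger log2 fold changes, up to 3.52 in fl/fl against 1.23 among the 44. In fl/fl kidneys 14 of 110 were higher and 3 lower after IRI, beside 8.46% and 7.01% of all genes, and the median log2 fold change was 0.16. In iGKO kidneys 0 of 110 passed, beside 0% of all genes. There 4 of 110 had an unadjusted p under 0.05, beside 6.37% of all genes, and the median was 0.10. Of 18 other G1 genes tested in fl/fl, 7 were higher and 1 was lower. Of 4 other inhibitors, 1 was higher. Of 43 other replication genes, 5 were higher and 1 was lower, and of 45 other mitosis genes 1 was higher and 1 was lower.

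Cdkn1a, which encodes the p53-induced inhibitor p21, had the largest log2 fold change of the wider list in fl/fl. It had 25.5, 25.5, 36.9 and 23.6 CPM in iGKO IRI kidneys and 28.3, 50.4, 108 and 307 CPM in fl/fl IRI kidneys. It had 11.6, 17.1, 9.55 and 11.9 CPM in iGKO sham kidneys and 10.9, 11.6, 12.8 and 7.62 CPM in fl/fl sham kidneys. All 8 IRI libraries were above all 8 sham libraries, and fl/fl IRI 1 lay at the level of the iGKO IRI libraries. On the log2 scale the response was 1.15 (SE 0.50, adjusted p = 0.751) in iGKO and 3.52 (SE 0.54, adjusted p = 0.00117) in fl/fl. The interaction, -2.37 (SE 0.71), did not pass (adjusted p = 0.271), nor did iGKO over fl/fl after IRI, -2.14 (SE 0.51, adjusted p = 0.0561), which passed in 4 of 23 alternatives. Myc, a growth factor-induced transcription factor that binds E boxes, had 24.9, 16.1, 20.9 and 21.8 CPM in iGKO IRI kidneys and 22.8, 43.5, 71.0 and 113 CPM in fl/fl IRI kidneys. It had 16.0, 21.6, 9.11 and 13.9 CPM in iGKO sham kidneys and 8.22, 7.46, 6.08 and 9.01 CPM in fl/fl sham kidneys. The fl/fl IRI libraries were all above the fl/fl sham libraries, fl/fl IRI 1 was the lowest of them and lay within the iGKO IRI range, and the iGKO groups overlapped. The log2 fold change of Myc was 0.46 (SE 0.36) in iGKO and 3.02 (SE 0.39, adjusted p = 0.000583) in fl/fl, and iGKO over fl/fl after IRI was -1.58 (SE 0.36, adjusted p = 0.0507).

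Cdk6, the other kinase of D-type cyclins, had 79.0, 88.3, 69.7 and 84.4 CPM in iGKO IRI kidneys and 101, 172, 254 and 108 CPM in fl/fl IRI kidneys. It had 67.9, 91.4, 68.2 and 60.5 CPM in iGKO sham kidneys and 78.0, 86.8, 68.1 and 61.3 CPM in fl/fl sham kidneys. The fl/fl IRI libraries were above all others and the other 3 groups overlapped, with a log2 fold change of 0.16 (SE 0.24) in iGKO and 1.11 (SE 0.24, adjusted p = 0.00740) in fl/fl. In fl/fl, Tfdp1, the dimer partner of E2F factors, was higher (0.60, SE 0.14, adjusted p = 0.00893), E2f3 was higher (0.54, SE 0.17, adjusted p = 0.0378), and Rbl2, a pocket protein of resting cells, was lower (-0.57, SE 0.13, adjusted p = 0.00809). The E2f3 call held in 13 of 23 alternatives and those of Tfdp1 and Rbl2 in all 23. The further G1 genes higher in fl/fl, named after their values were seen, were Cdc25a, E2f4 and Cks1b. Cdkn2b, an inhibitor of Cdk4 and Cdk6, was higher by the average over genotypes (1.66, SE 0.38, adjusted p = 0.0115), while Cdkn1c (-0.20, SE 0.26) and Cdkn2d (0.06, SE 0.20) did not pass. Cdkn2b was sparse, at 0.817 to 2.22 CPM in iGKO IRI and 0.342 to 2.04 CPM in fl/fl IRI libraries. Its sham levels were 0.223 to 0.674 CPM in iGKO and 0.237 to 0.839 CPM in fl/fl, and the fl/fl ranges overlapped.

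Among other replication genes in fl/fl, Fen1, the flap nuclease of Okazaki fragments, was higher by log2 1.39 (SE 0.33, adjusted p = 0.0111) and Rpa2, a subunit of the single-strand binding protein, by 1.01 (SE 0.22, adjusted p = 0.00698). Gins2, of the replicative helicase complex, was at 1.13 (SE 0.36, adjusted p = 0.0463) and Pold3, of polymerase delta, at 0.50 (SE 0.15, adjusted p = 0.0386), calls that held in 8 and 9 of 23 alternatives. Chaf1b, named after its values were seen, was the remaining gene called higher. In iGKO, Fen1 was at 0.48 (SE 0.32), Rpa2 at 0.01 (SE 0.21), Gins2 at 0.36 (SE 0.36) and Pold3 at 0.09 (SE 0.15), none of which passed.

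Of the other mitosis genes, Bub3, a checkpoint protein, was higher in fl/fl IRI than in fl/fl sham kidneys by 0.39 (SE 0.11, adjusted p = 0.0216), which held in 17 of 23 alternatives. Cit, citron kinase, which acts in cytokinesis, had 31.0 ± 4.99 CPM in iGKO IRI, 14.5 ± 12.8 CPM in fl/fl IRI, 39.9 ± 13.2 CPM in iGKO sham and 57.5 ± 5.93 CPM in fl/fl sham kidneys (SD, n = 4 each). Cit was lower in fl/fl by log2 -1.99 (SE 0.43, adjusted p = 0.00724) and was at -0.36 (SE 0.41) in iGKO. Cenpa, the centromeric histone variant, was at -0.82 (SE 0.33, adjusted p = 0.105) in fl/fl. Cdca8 and Incenp, partners of Aurkb, were at 0.85 (SE 0.42, adjusted p = 0.180) and 0.46 (SE 0.23, adjusted p = 0.182).

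**Figure D5:**
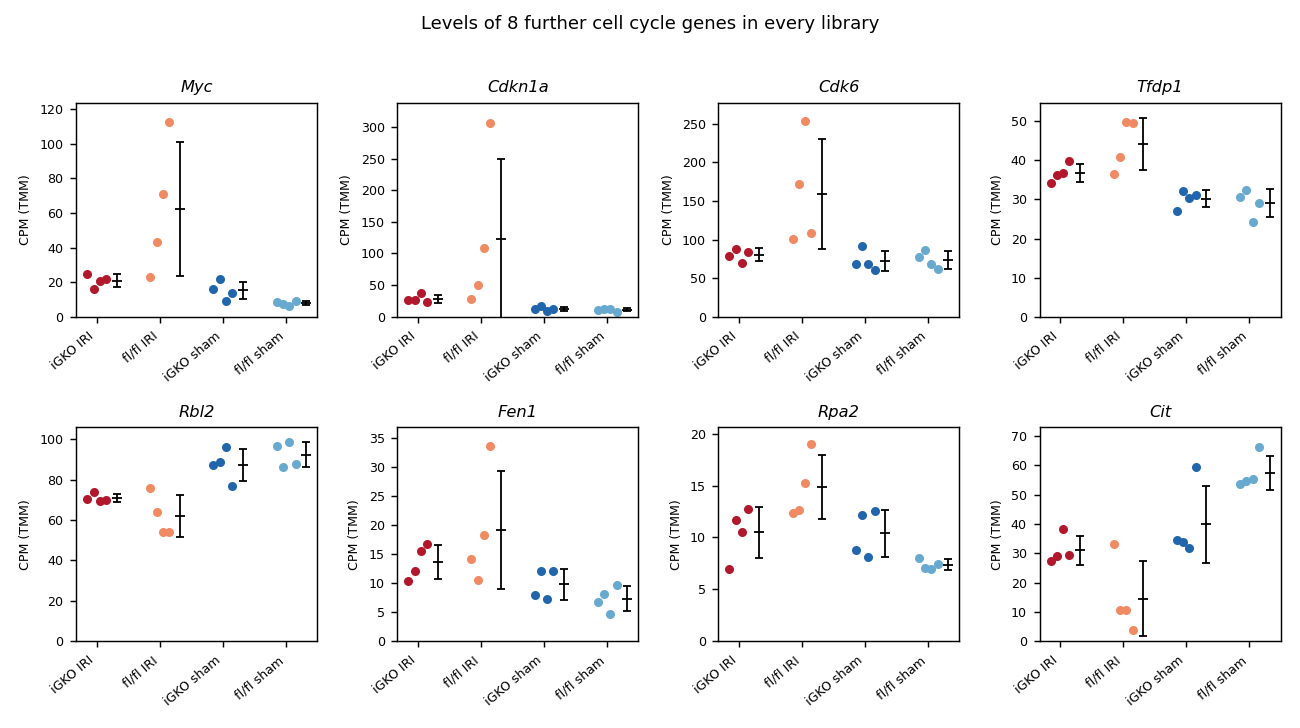
Levels of 8 further cell cycle genes. Each dot is 1 library, with CPM on a linear axis from 0, and the bar is the mean with the SD of 4 libraries, whose lower end is cut at 0 for Cdkn1a. In fl/fl IRI, Cdkn1a spans 28.3 to 307 CPM and Myc 22.8 to 113 CPM, each with library 1 lowest, while the iGKO IRI libraries lie at 23.6 to 36.9 CPM and 16.1 to 24.9 CPM.

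Markers of other cell types differed in summed level between the groups. The summed level of 8 neutrophil markers was 13.1 to 48.9 CPM in iGKO IRI, 30.8 to 243 CPM in fl/fl IRI, 3.37 to 21.3 CPM in iGKO sham and 6.61 to 15.2 CPM in fl/fl sham libraries, with 1 marker at 0 in all fl/fl sham libraries. For 10 monocyte and macrophage markers it was 272 to 721 CPM in iGKO IRI, 91.6 to 942 CPM in fl/fl IRI, 165 to 287 CPM in iGKO sham and 142 to 377 CPM in fl/fl sham libraries. Proximal tubule markers summed to 16261 to 21175 CPM in iGKO IRI, 8832 to 20205 CPM in fl/fl IRI, 21808 to 28711 CPM in iGKO sham and 24420 to 29389 CPM in fl/fl sham libraries. The 9 tubule injury markers summed to 1580 to 3295 CPM in iGKO IRI, 3702 to 15493 CPM in fl/fl IRI, 1080 to 2392 CPM in iGKO sham and 794 to 1514 CPM in fl/fl sham libraries. The part of these shifts in the levels of the cell cycle genes was not tested.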

How the data were processed

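The deposited table held counts, whole numbers of reads per gene without normalization, for 56980 Ensembl identifiers in 16 libraries of kidney cortex. Per the labels' protocols, ribosomal RNA was depleted from total RNA and the libraries keep the strand. The submitters' processing notes list STAR 2.7.9a, featureCounts 1.6.3 and cutadapt 1.16, beside DESeq2 1.36.0, MultiQC, Picard and FastQC; the build was GRCm39 (mm39). The annotation release and strand setting are not given in the sources used here. Symbols came from a GENCODE annotation matched by identifier, which named 52073 identifiers.

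The main test was that of edgeR 4.0.16 (R 4.3.3): filterByExpr by group, TMM scaling, and a quasi-likelihood fit with 1 coefficient per group over all 16 libraries, which therefore share 1 estimate of the spread. The tests were two-sided over 6 contrasts, with Benjamini-Hochberg adjustment over 17972 genes in each and a threshold of 0.05. The standard error (SE) is the size of the log2 fold change divided by the root of F. CPM values are TMM-scaled. The plots of relative level use a pseudocount of 0.5 CPM. Alternatives were DESeq2 size factors in edgeR, DESeq2 1.42.0, no filter on low counts, limma 3.58.1 voom with sample quality weights, only the groups compared, a replicate block, each library left out, and both iGKO sham 4 and fl/fl IRI 1 left out. The procedure was run on simulated counts as a check of the code. These counts held no outlying libraries, so the run does not measure how reliable the calls given here are. The labels give no batch, so none could be tested. Replicates of a group differed by 8.99 to 164 chi-square units per gene, far above sampling noise, so none was the same library sequenced again. This measure cannot tell whether separate libraries came from the same kidney.

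The 44 genes, the wider lists and the alternatives were chosen with earlier results of these data known. Values per library are given for Mki67, Top2a, Ccnd1, Cdk1, Ccnb1, Pcna, Mcm2 and Cdkn1b and for up to 4 genes a phase with the smallest p in the contrast averaged over genotypes. Of each wider list up to 5 genes were named by the same p, and Cdkn1a always; 1 gene that this rule names is not reported here. Reads of Ccnd3, Pcna, Tyms, Ccnb1 and Ccnb2 could be shared with processed pseudogenes, which held at most 9 counts in a library. Intervals cover the spread between libraries only.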

Additional observations from a re-analysis of the deposited data

Results flagged for a closer look

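For each of the 44 genes in each group of 4 libraries, the gap of a library to the nearest other library was divided by the range of the group. A library was singled out where this ratio was above Dixon's 95% critical value. That happened in 17 of 176 groups of values, and chance alone gives about 1 in 20 groups.

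In iGKO IRI 2 there were 4 such values: Ccne1 at 2.41 CPM against 0.817 to 1.08 in the other iGKO IRI libraries, Bub1 at 1.48 CPM against 0.270 to 0.442, Cenpe at 4.32 CPM against 1.34 to 1.77, and Tpx2 at 3.45 CPM against 1.39 to 1.62. In iGKO IRI 4, Mcm2 was at 47.7 CPM against 31.6 to 32.9.

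In the fl/fl IRI group, Ccnd3 was at 142 CPM in library 1 against 60.5 to 74.4 in the others, and Mcm2 was at 11.5 CPM in library 4 against 36.3 to 38.8. Rrm2 was at 15.2 CPM in library 3 against 5.34 to 6.57, and Kif20a was at 1.08 CPM in library 2 against 2.04 to 2.09.

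In the iGKO sham group, Rrm2 was at 14.4 CPM in library 2 against 4.31 to 4.88, and Cks2 was at 7.68 CPM in library 4 against 17.0 to 18.2.

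In fl/fl sham 1, Ccnd2 was at 39.3 CPM against 35.1 to 35.4, Mcm3 at 10.7 CPM against 7.89 to 8.11 and Aurkb at 1.26 CPM against 0.838 to 0.908. In fl/fl sham 3, E2f1 was at 3.70 CPM against 6.64 to 6.99 and Mcm7 at 16.8 CPM against 23.5 to 24.7. In fl/fl sham 2, Kif20a was at 1.10 CPM against 2.53 to 2.80.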

How the results depend on the processing

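No alternative reversed a call. For IRI against sham in iGKO, limma with quality weights called 1 of the 44 genes higher and 1 lower, and all genes called were 43 with DESeq2, 4 without the filter, 550 with limma and 0 to 1 with a library left out. For fl/fl, where 1 of 44 was called higher and 0 lower, the higher count was 3 with DESeq2, 0 without the filter, 2 with limma, 0 with only the groups compared, 4 without both iGKO sham 4 and fl/fl IRI 1, and 0 to 4 with a library left out. The lower count was 7 with limma, 2 without both libraries and 0 to 2 with a library left out. All genes called, 2779 in the fit as described, were 4593 with limma, 1526 with only the groups compared, 5508 without both libraries and 1452 to 4335 with a library left out. Averaged over genotypes, the higher count was 2 with DESeq2 size factors, 2 with DESeq2, 4 with limma, 2 without both libraries and 0 to 4 with a library left out, and the lower count was 3 with limma, 2 without both libraries and 0 to 2 with a library left out. All genes called, 2133 there, were 5230 with limma, 4459 without both libraries and 1379 to 3542 with a library left out. For iGKO against fl/fl after IRI, the higher count was 1 with limma, 3 without both libraries and 0 to 3 with a library left out, and the lower count was 0 throughout. All genes called, 153 there, were 911 with DESeq2, 352 without the filter, 1461 with limma, 0 with only the groups compared, 3816 without both libraries and 0 to 2495 with a library left out. After sham, limma called 2 genes in all, and leaving out a library gave 0 throughout. For the interaction, limma called 1 of 44 higher and the fit without both libraries 2, and all genes called were 101 with DESeq2, 15 without the filter, 1163 with limma, 1489 without both libraries and 0 to 776 with a library left out. The causes of these shifts were not tested.

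With the replicate block, 0 of 44 genes were called in fl/fl, where Cdk4 had an adjusted p of 0.0588, and 0 of 44 in the average over genotypes. All genes called were 0 for iGKO against fl/fl after IRI and 1 for the interaction. Libraries with the same number correlated at -0.35 to 0.43 (median 0.01, 24 pairs) in their deviations from group means. Libraries with other numbers correlated at -0.41 to 0.38 (median -0.01, 72 pairs), and 7 of 16 libraries correlated best with their own number. These values do not decide whether the numbers pair the libraries, so the main fit uses no pairing and the fit with the replicate block is given beside it.

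Depth limits the genes under 5 CPM, such as Ccnb1 with 1 to 39 reads in a library. Scaling by DESeq2 size factors moved the median log2 fold change of all genes by less than 0.1 in each of the 6 contrasts.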

Other observations

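The highest and lowest values of the 44 genes fell unevenly over the libraries. fl/fl IRI 4 was the lowest of all 16 libraries for 13 genes, among them Ccnd1, Ccnd2, E2f1 and Mcm2, and the highest for 4, among them Pcna and Cdk2. fl/fl IRI 3 was the highest for 10 genes, iGKO IRI 2 for 8 and fl/fl sham 4 for 7. fl/fl IRI 1 was neither the highest nor the lowest for any gene. In fl/fl IRI 4 Cdkn1a was at 307 CPM, the highest level of that gene in any library, beside 16.9 CPM of Ccnd1, the lowest level of that gene in any library. E2f1 had 1.90 CPM in fl/fl IRI 4, where fl/fl IRI 1, 2 and 3 had 5.48 to 11.8 CPM. These values are descriptions of single libraries and no test was made of them.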
